A study of Mus musculus with 2 samples.

Results

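Of the 1975 barcodes kept from 2 libraries of mouse cochlea, 93 formed the supporting-type epithelium described here, with 79 of 1331 in library 1 (5.94%, exact binomial 95% interval 4.73 to 7.34%) and 14 of 644 in library 2 (2.17%, 1.19 to 3.62%). A barcode was a member when it held at least 300 detected genes, at most 20% of its UMIs (unique molecular identifiers, each a captured transcript) from mitochondrial genes, at least 1 UMI for 3 or more of the 5 genes Fibin, Otol1, Lfng, Otog and Ildr1, and UMIs for at most 1 of the 7 genes Otof, Slc17a8, Pou4f3, Lhfpl5, Tmc1, Fabp7 and Ucma. The first 5 are genes of non-sensory inner ear epithelium, and most of the 7 mark hair cells or neighbouring epithelium. These values chose the members, so they are given as a description and not tested.

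Supporting cells are the non-sensory cells that surround and hold the hair cells of the organ of Corti. They are coupled to each other by gap junctions, take up ions and transmitter around active hair cells, and express the transcription factor Sox2 and receptors and targets of the Notch pathway. Cochlear non-sensory epithelium also secretes proteins of the tectorial membrane, the acellular sheet that lies over the hair bundles. Otog encodes otogelin, a protein of that membrane, Otol1 encodes otolin, a collagen-like protein first known from the otoconial membrane of the vestibular organs, Lfng encodes a glycosyltransferase that modifies Notch receptors, and Ildr1 encodes a protein of the junctions where 3 epithelial cells meet.

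The material was cochlea of C57BL/6 mice aged 20 days, dissociated with trypsin and profiled by droplet single-cell RNA sequencing to examine patterns of gene expression. The 2 libraries form 1 group with no treatment or genotype contrast, and the labels give 5 to 8 mice without stating whether the libraries came from separate animals. The p-values below therefore measure only how far differences between cell groups varied between these libraries, which may be technical. The deposited matrices held 1610 barcodes and 20212520 UMIs in library 1 and 720 barcodes and 7094752 UMIs in library 2. The median depth of a member was 11855 UMIs in library 1 and 7458 in library 2, with 3456 and 2693 genes detected at the median. The libraries shared 2 barcodes, none of them a member, and Scrublet, a doublet caller, marked 2 and 4 of the kept barcodes and no member. Doublets were not tested in any other way.

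Comparison groups were taken from the other kept barcodes. Hair cells (at least 3 of Otof, Slc17a8, Pou4f3, Lhfpl5 and Tmc1) numbered 53 in library 1 and 4 in library 2. Fabp7 epithelium (Fabp7 with Fzd9 or Epyc) numbered 62 and 6, Ucma epithelium (Ucma with Gata3 or Epyc) 62 and 17, and all other kept barcodes 721 and 567. The 354 and 36 remaining barcodes with over 50% haemoglobin UMIs, called red cell barcodes here, served as a background for free RNA only. They held an Epyc UMI in 160 and 4 barcodes, so the Fabp7 and Ucma rules are crude. In library 1, barcodes of these groups held up to 92.6% and 92.7% haemoglobin UMIs. With at least 5 Epyc UMIs and at most 50% haemoglobin UMIs, the Fabp7 group numbered 43 and 4 and the Ucma group 22 and 12.

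Fibin, which encodes a secreted protein, was detected in 67 of 79 members in library 1 and 13 of 14 in library 2. Lfng was detected in 68 and 9 members, Otog in 65 and 13, and Ildr1 in 72 and 13. Otol1 was detected in 36 of 79 members in library 1 and in 2 of 14 in library 2, with 1 UMI in each of those 2 cells. Otol1 was thus found in 38 of 93 members, too few to name the cells by, and they are called members below. Red cell barcodes, with median depths of 10371 and 12834 UMIs, held a UMI for Fibin in 13 of 354 barcodes in library 1 and 0 of 36 in library 2, and for Otol1 in 6 and 0. Among the 93 members, 39 had exactly 3 of the 5 genes, 29 had 4 and 25 had all 5, while 52 held none of the 7 excluded genes and 41 held 1. The excluded gene was Fabp7 in 29 members, Ucma in 9, Slc17a8 in 2 and Lhfpl5 in 1. Just outside the rule lay 54 barcodes in library 1 and 17 in library 2 with exactly 2 of the 5 genes and at most 1 excluded gene. A further 43 barcodes in library 1 and 1 in library 2 had at least 3 of the 5 genes and more than 1 excluded gene.

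In the GENCODE vM21 annotation of GRCm38, the assembly also called mm10, the 5 protein-coding genes lie on 5 chromosomes. Fibin lies on chromosome 2 at 110360917-110363183, minus strand. Otol1 lies on chromosome 3 at 70007613-70028708, plus strand. Lfng lies on chromosome 5 at 140607320-140615545, plus strand. Otog lies on chromosome 7 at 46240987-46311434, plus strand. Ildr1 lies on chromosome 16 at 36693978-36726804, plus strand. The counts are per whole gene, so no exon or transcript was told apart.

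The 93 members were not alike, and 2 genes outside the rule split most of them. Epyc encodes epiphycan, a small leucine-rich proteoglycan, and Bace2 encodes a membrane protease. With 6 unusual cells set apart, 31 members held at least 10 Epyc UMIs (24 in library 1 and 7 in library 2), 21 held at least 5 Bace2 UMIs and fewer than 10 Epyc UMIs (all in library 1), and 35 held neither (29 and 6). These limits were chosen after the values had been seen, so the sets below are described and not tested. Few cells lay near the limits: 5 members held 5 to 14 Epyc UMIs, and 4 members with fewer than 10 Epyc UMIs held 3 to 6 Bace2 UMIs. No member of library 2 passed the Bace2 limit. On a floor of 3 counts, 0 of 14 cells allows a share of up to 21.4%. The members of library 2 were shallower, at a median of 7458 UMIs, than the Bace2 set, at 16134. With each cell thinned to 3000 UMIs, Bace2 was detected in 43.04% of members in library 1 and 0% in library 2. Whether depth had a part in the absence was not tested.

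**Figure D1:**
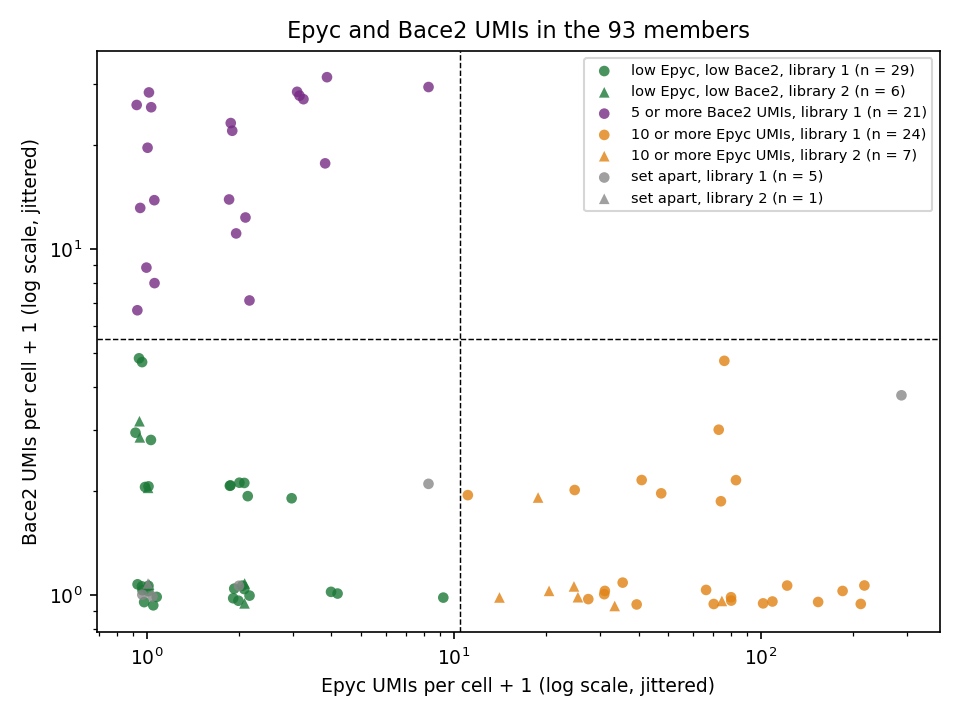
Each point is 1 of the 93 members, placed by its Epyc UMIs (x) and Bace2 UMIs (y), each plus 1 on a log scale with a small jitter, and the dashed lines part cells with at least 10 Epyc or 5 Bace2 UMIs from the rest. The 21 purple cells above the Bace2 line are all circles (library 1), the 31 orange cells right of the Epyc line come from both libraries, and the 6 cells set apart are grey.

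The 35 members low in Epyc and Bace2 carried most of the Fibin and Lfng signal per cell and the highest connexin levels. Fibin and Lfng were detected in all 35, and Otol1 in 23. Levels per cell are given as CPM, the count of a gene scaled to a fixed total of UMIs per cell. Fibin ranged from 599 through a median of 1371 to 2787 CPM in the 29 cells of library 1 and from 449 through a median of 1315 to 2533 CPM in the 6 cells of library 2. Fibin and Lfng helped to choose the members, and these cells were shallower (median 6072 and 6940 UMIs) than the Bace2 and Epyc sets. A shallow cell meets the rule more readily at high levels of its genes, so the Fibin levels are a description only. Gjb2, which encodes connexin 26, ranged from 1113 through a median of 2656 to 6557 CPM in library 1 and from 549.8 through a median of 1819 to 2744 CPM in library 2. Gjb6, which encodes connexin 30, ranged from 1056 through a median of 2255 to 4591 CPM in library 1 and from 1497 through a median of 1762 to 2533 CPM in library 2. Every one of the 35 cells held both connexins.

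Other genes differed between these cells and the remaining members of library 1. The glutamate transporter gene Slc1a3 was at 1190 CPM in the sum of the 29 cells, against 30.5 CPM in the Bace2 set and 385 CPM in the Epyc set. In library 2, Slc1a3 was at 1720 CPM in the 6 cells and 42.2 CPM in the 7 Epyc cells. Slc1a3 was not particular to the members. It was detected in 68.4% and 57.1% of all members in libraries 1 and 2, and in 68.2% and 75.7% of all other kept barcodes. The actin-severing protein gene Gsn ranged from 181 through a median of 5105 to 58604 CPM in the 29 cells, a wide spread between single cells, and its median was 0 CPM in the Bace2 set and 395 CPM in the Epyc set. The transcription factor gene Tbx2 was detected in 26 of 29 cells, against 1 of 21 and 10 of 24. Among genes seen in at least 50% of these cells, the leading differences (log2 of CPM plus 10, against the higher of the other sets) were 2.34 for Fam25c, 2.15 for the epithelial sodium channel subunit gene Scnn1b and 2.11 for Lfng. Lfng is a rule gene, so its value is a description only.

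The 21 Bace2 members had other leading genes and a median of 16134 UMIs. Fabp3, which encodes a fatty acid binding protein, ranged from 847 through a median of 4056 to 7827 CPM per cell and was detected in all 21. In the 29 cells low in Epyc and Bace2, Fabp3 was detected in 4 and reached 212 CPM. The Epyc set did overlap with the Bace2 set. In 1 Epyc cell 15 of 10862 UMIs were Fabp3, a higher share than the 12 of 14167 in the lowest Bace2 cell. How many of all genes parted these sets was not counted. The fibroblast growth factor receptor gene Fgfr3, known from pillar and Deiters cells, was detected in all 21 cells, against 1 of 29 cells and 5 of 24 Epyc cells. Ppp1r17, a phosphatase regulator gene, was also in all 21, from 86.9 through a median of 1077 to 2354 CPM. Tectb, which encodes beta-tectorin, was at 1747 CPM in the sum of these cells, and Ceacam16, another tectorial membrane gene, at 7743 CPM.

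Of the listed Deiters cell genes, Bace2, Ceacam16 and Fgfr3 were in all 21 cells, Prox1 in 7, Lgr5 in 5 and Hes5 in 1. Prox1 was in no cell of the other sets. The list was met only in part, and Bace2 itself chose the cells, so the set is given no cell type name. Gjb2 was at 223 CPM and Gjb6 at 852 CPM in the sum of the Bace2 cells, against 2530 and 2339 CPM in the 29 cells. Fibin was detected in 11 of the 21 cells, Otol1 in 2 and Lfng in 17, while Otog and Ildr1 were found in all 21.

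The 31 Epyc members occurred in both libraries. Summed Epyc was 4988 CPM in library 1 and 2980 CPM in library 2, against 144 and 52.1 CPM in the cells low in Epyc and Bace2. The water channel gene Aqp4 was detected in 21 of 24 cells in library 1 and 6 of 7 in library 2, and in none of the 35 cells. The transcription factor gene Gata2 was detected in 23 and 6 of these cells, against 3 of 29 and 0 of 6. Fabp7 was detected in 16 of the 31, and also in 12 of the 35 cells low in Epyc and Bace2. In library 1 it had 90 UMIs in the Epyc set and 17 in the cells low in both. Epyc also served to choose the Fabp7 and Ucma epithelium, so the Epyc members border on the comparison groups by the rules themselves.

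**Figure D2:**
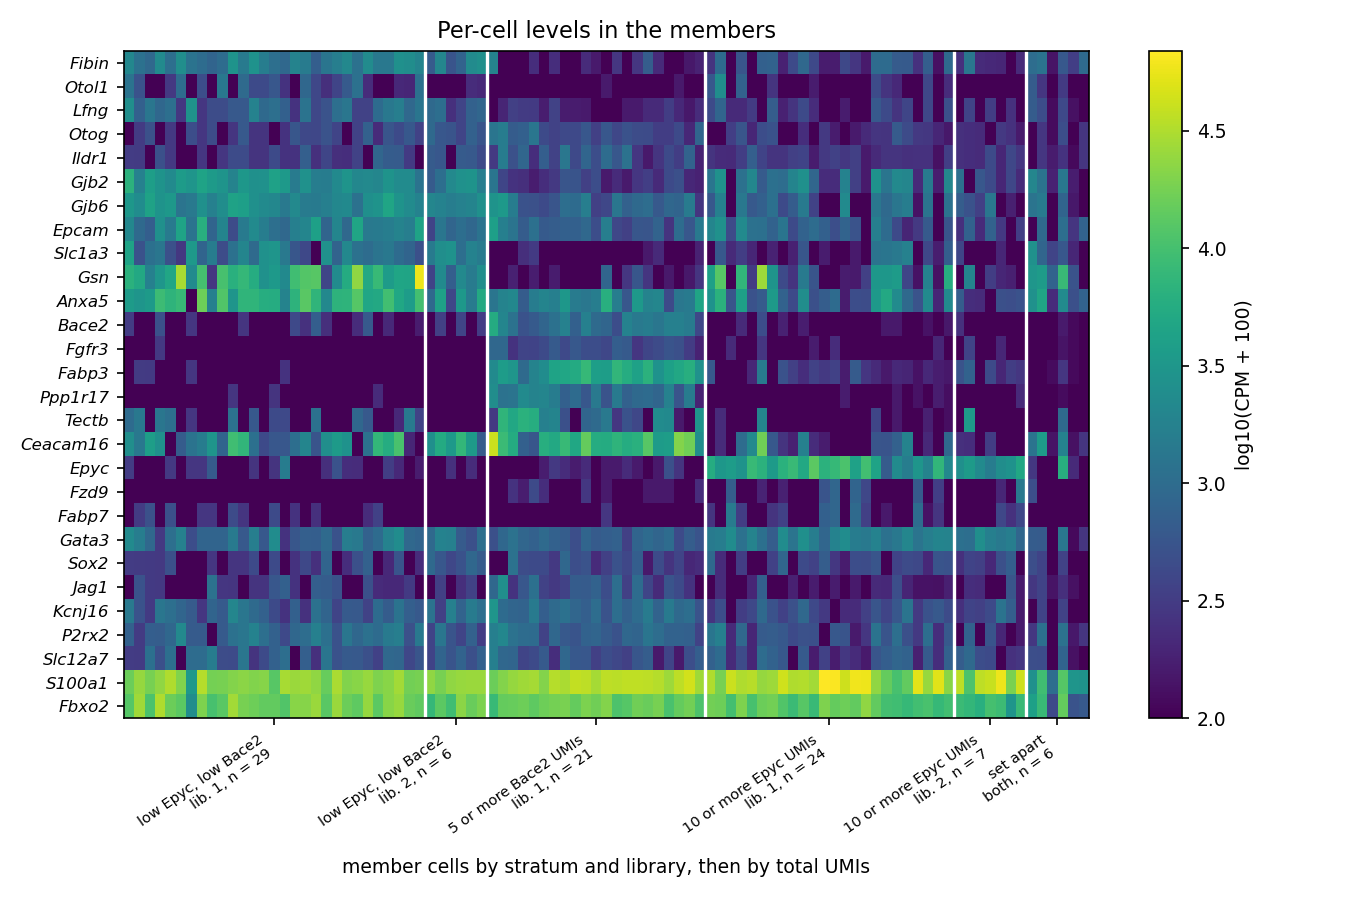
Rows are 28 genes, columns are the 93 members grouped by set and library, and colour is log10 of CPM plus 100. Gjb2, Gjb6 and Fibin are bright in the 35 cells low in Epyc and Bace2, and Fabp3, Fgfr3 and Ppp1r17 in the 21 Bace2 cells.

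The 6 members set apart were unusual in other ways. Of these, 3 held over 40000 UMIs, 1 held 45.5% haemoglobin UMIs, 2 held over 100 UMIs of the fibrocyte gene Coch and 2 held over 50 UMIs of Vmo1, with some cells meeting several of these. The 2 Vmo1 cells, 1 in each library, supplied 680 of the 712 Vmo1 UMIs of the members in library 1 and 66 of 69 in library 2. They also held all 67 and all 22 UMIs of the Wnt antagonist gene Dkk2, and all 22 and all 11 UMIs of the anion transporter gene Slc26a7. Vmo1 and Slc26a7 are the 2 genes listed here for Reissner's membrane, the thin sheet that roofs the cochlear duct. Fibin had 14 and 5 UMIs in these cells, and each of the other 4 rule genes at most 2.

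Across all members, S100a1, Fbxo2 and Skp1a led the genes in no list, leaving aside Malat1 and the mitochondrial and ribosomal protein genes. Group levels from here on are CPM of the summed counts, library 1 first, and fold changes are given ± SE. S100a1, which encodes a calcium-binding protein, was at 27161 and 29945 CPM in members, against 1369 and 1190 CPM in all other barcodes (log2 fold change 4.35 ± 0.51, edgeR adjusted p = 7.41e-10). Fbxo2, which encodes an F-box protein abundant in cochlear non-sensory cells, was at 12987 and 9646 CPM, against 636 and 437 CPM (log2 fold change 4.27 ± 0.49, edgeR adjusted p = 1.75e-10). Skp1a, whose product joins F-box proteins into ubiquitin ligases, was at 6921 and 6523 CPM, against 411 and 287 CPM. For each of these genes the members' summed level in each library lay above both sums of all other barcodes. This holds for sums and not for every cell, as 1 member held 43 S100a1 UMIs among 46595. How many of all tested genes parted the sums in this way was not counted. Against Fabp7 epithelium the log2 fold change was -0.13 ± 0.45 for S100a1 and 0.07 ± 0.43 for Fbxo2 (edgeR adjusted p = 1 for both).

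Of the 8 listed connexin genes, 3 could be tested, and neither Gjb2 nor Gjb6 passed in any comparison. Gjb2 was at 1026 and 824 CPM in members, against 466 and 1790 CPM in Fabp7 epithelium, 562 and 1203 CPM in Ucma epithelium and 257 and 331 CPM in all other barcodes. Members were above both epithelial groups in library 1 and below them in library 2. The log2 fold change was -0.25 ± 1.29 against Fabp7 epithelium, 0.05 ± 1.26 against Ucma epithelium and 1.55 ± 1.27 against all others (smallest edgeR adjusted p = 0.499). Gjb6 was at 992 and 815 CPM in members, against 293 and 806 CPM in Fabp7 epithelium and 100.1 and 135 CPM in all others (log2 fold change 2.85 ± 1.21, edgeR adjusted p = 0.193 against all others). The third, Gjc1, which encodes connexin 45, had 1 UMI over all 93 members, in a cell set apart. It was at 0.925 and 0 CPM in members, against 23.6 and 20.4 CPM in all others (log2 fold change -4.89 ± 1.00, edgeR adjusted p = 8.62e-05) and passed as lower. It passed as lower against Ucma epithelium too, which held 13 Gjc1 UMIs in library 1 and none in library 2 (log2 fold change -3.66 ± 1.24, edgeR adjusted p = 0.0498). The gap junction list's medians were -0.25 against Fabp7 epithelium, 0.05 against Ucma epithelium, 1.68 against hair cells and 1.55 against all others, beside -0.02, -0.07, 0.06 and -0.16 for all tested genes.

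**Figure D3:**
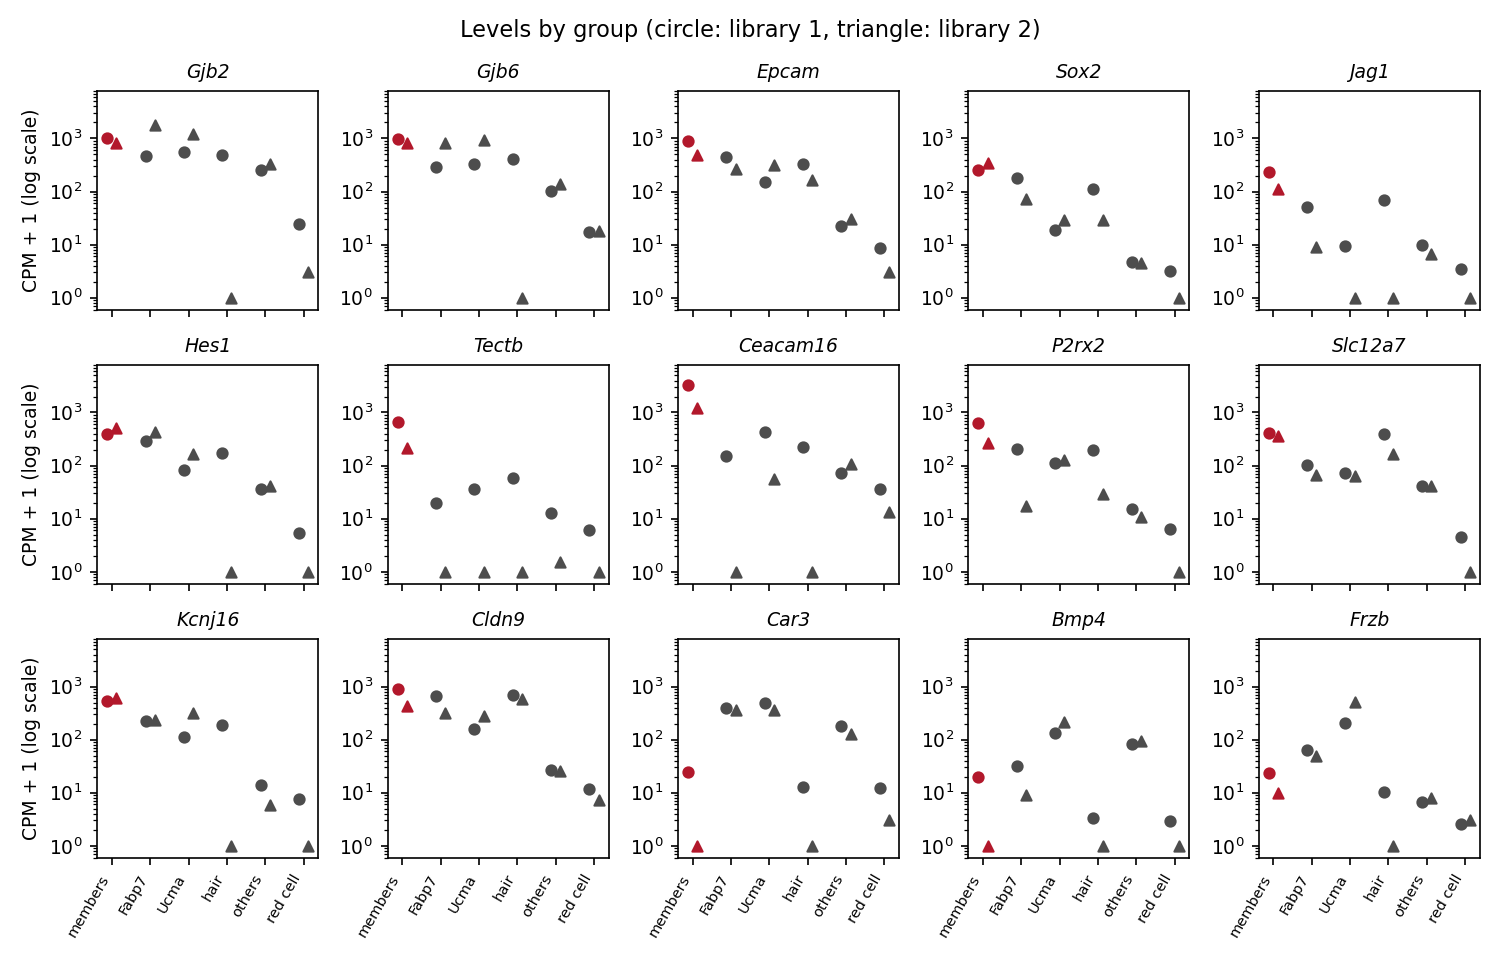
Each panel shows the summed level (CPM plus 1, log scale) of a gene in the members (red, left), the comparison groups and the red cell barcodes, with 1 point per library. Sox2 and Ceacam16 are highest in the members in both libraries, while Gjb2 is highest in the members in library 1 and not in library 2.

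Counts were summed per library and group, and all groups entered 1 edgeR model with a library term. The genes of the rules were not tested, and 10739 genes were. Because the rule genes were first noticed as leading genes of a cluster of these same cells, the tests describe how the chosen groups differ and are not independent evidence of a cell type.

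Against all other kept barcodes, a mixture that includes mesenchyme and blood cells, members were higher in 1106 genes (10.3% of those tested) and lower in 1366 (12.7%). Without the library term the counts were 815 and 758. Sox2 was at 253 and 338 CPM in members, against 3.73 and 3.58 CPM in all others (log2 fold change 6.16 ± 0.50, edgeR adjusted p = 3.47e-15). The epithelial adhesion gene Epcam was at 884 and 494 CPM, against 21.9 and 29.3 CPM (log2 fold change 4.57 ± 0.53, edgeR adjusted p = 2.87e-10). The potassium channel gene Kcnj16 was at 540.0 and 599 CPM, against 12.9 and 4.83 CPM (log2 fold change 5.88 ± 0.82, edgeR adjusted p = 0.000168). For each of the 3, both member sums lay above both sums of all others. The share of all tested genes for which this held was not counted. P2rx2, which encodes an ATP-gated channel, was at 628 and 260.2 CPM, against 14.2 and 9.65 CPM (log2 fold change 4.97 ± 0.55, edgeR adjusted p = 4.41e-09). The 10 largest increases by the naming rule were in Cpa6, Ppp1r36, Rassf6, Tectb, Ism1, Slitrk6, Fam159b, Sox2, Prr15 and Kcnj16. Cpa6, which encodes a carboxypeptidase, was at 50.9 and 69.4 CPM in members, against 0.191 and 0.179 CPM (log2 fold change 7.66 ± 0.70, edgeR adjusted p = 7.98e-14).

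The 10 genes lowest against all others had no UMI in the members. They included the cell division genes Cdk1, Pbk and Prc1 and the red cell carbonic anhydrase gene Car1. With 3 counts over the member sums as the floor, Cdk1 was at least 15.8-fold lower. Of the 7 mesenchyme genes, which summed to 1020 and 295 CPM in members and 6197 and 6544 CPM in all others, 6 fell. All 4 tested leukocyte genes and both tested endothelial genes fell too, beside 12.7% of all tested genes. No gene of these lists was called higher. The list medians were -3.54 for mesenchyme, -3.77 for leukocyte and -3.00 for endothelial genes, against -0.16 for all tested genes. In library 1, 79.7% of the members' Coch UMIs and 78.0% of their UMIs of the endothelial gene Emcn came from its 5 cells set apart. A single cell held 71.7% of these Emcn UMIs.

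Against Ucma epithelium, members were higher in 299 genes (2.78%) and lower in 616 (5.74%), 8.52% in either direction, against 45 and 33 without the library term. The Notch ligand gene Jag1 was at 228 and 113 CPM in members, against 8.27 and 0 CPM in Ucma epithelium (log2 fold change 4.77 ± 0.63, edgeR adjusted p = 1.31e-07). Ism1, which encodes a secreted protein, was at 61.0 and 52.1 CPM, against 0.919 and 0 CPM (log2 fold change 5.99 ± 0.93, edgeR adjusted p = 4.17e-06). The potassium-chloride cotransporter gene Slc12a7, whose loss deafens mice, was at 408 and 364 CPM, against 70.8 and 61.9 CPM (log2 fold change 2.43 ± 0.48, edgeR adjusted p = 0.000257). Jag1, Ism1 and Slc12a7 passed in every alternative that tested them. Sox2 was at 17.5 and 27.5 CPM in Ucma epithelium (log2 fold change 3.81 ± 0.54, edgeR adjusted p = 6.56e-07), a call lost when each cell was thinned to 3000 UMIs. The growth factor gene Gdf6 was at 316 and 191 CPM in members, against 13.8 and 13.8 CPM (log2 fold change 4.31 ± 0.56, edgeR adjusted p = 1.31e-07), and lost its call when thinned. The rest of the 10 largest increases were in Crhbp, Tectb, Rassf6, Cutal, Adgrg6, Fam159b and Slitrk6. Of these, Crhbp had 58 of 59 and all 12 of its UMIs in the 2 Vmo1 cells.

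The Wnt antagonist gene Frzb was lower, at 22.2 and 8.68 CPM in members, against 206 and 502 CPM in Ucma epithelium (log2 fold change -4.02 ± 0.51, edgeR adjusted p = 1.28e-07). Bmp4, a growth factor gene known from the outer sulcus and Hensen cell region, was at 18.5 and 0 CPM, against 135 and 213 CPM (log2 fold change -3.51 ± 0.54, edgeR adjusted p = 3.26e-06). The apolipoprotein gene Apoc1 was at 10.2 and 8.68 CPM, against 215 and 138 CPM (log2 fold change -4.35 ± 0.58, edgeR adjusted p = 1.53e-07). Frzb, Bmp4 and Apoc1 passed in every alternative that tested them. The carbonic anhydrase gene Car3 had 26 UMIs in members of library 1, 16 of them in the cells set apart, and none in library 2, against 484 and 364 CPM in Ucma epithelium (log2 fold change -4.73 ± 0.58, edgeR adjusted p = 9.24e-08), a call lost under a stricter barcode limit of 500 genes and 10% mitochondrial UMIs. Smoc2 and Aspa had no UMI in members, which puts Smoc2 at least 7.12-fold lower on a floor of 3 counts over the group. Asgr1, Bdh1, Wnt6, Kcnk2 and Lrrc4b completed the 10 lowest. Kcnk2, at a log2 fold change of -4.25 ± 0.67, lost its call and turned to 0.76 when the Fabp7 and Ucma groups were held to at least 5 Epyc UMIs and at most 50% haemoglobin UMIs, and did not pass without the library term. The 5 red cell genes summed to 11128 CPM in members and 113513 CPM in Ucma epithelium in library 1, and the 4 neuron genes to 8.32 CPM in members and 665.5 CPM in Ucma epithelium. Their part in the result was not tested.

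Against Fabp7 epithelium the fewest genes passed. Members were higher in 110 genes (1.02%) and lower in 124 (1.15%), 2.18% in either direction. Without the library term the counts were 8 and 2, and DESeq2's test called 21 and 10. Tectb was at 660.2 and 217 CPM in members, against 18.4 and 0 CPM in Fabp7 epithelium (log2 fold change 5.64 ± 0.64, edgeR adjusted p = 1.75e-08). All 25 Tectb UMIs of library 2 came from 1 cell, and the call was lost among members with fewer than 5 Bace2 UMIs, when thinned and without the library term. Ceacam16 was at 3240 and 1241 CPM, against 152 and 0 CPM, and did not pass (log2 fold change 4.92 ± 1.41, edgeR adjusted p = 0.285). Slc12a7 was at 101 and 64.5 CPM in Fabp7 epithelium (log2 fold change 2.14 ± 0.47, edgeR adjusted p = 0.00317), and only the model without the library term lost this call. Sox2 did not pass, at 178 and 72.6 CPM in Fabp7 epithelium (log2 fold change 1.04 ± 0.43, edgeR adjusted p = 0.297).

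Among the 10 largest increases against Fabp7 epithelium, Dkk2, Tmem72, Crhbp, Rnase1, Slc26a7, Vmo1 and Gpx3 drew at least 94.9% of their member UMIs from 1 Vmo1 cell in each library, so these values describe 2 cells. The others were Tectb, Tmem229a at 314 and 86.8 CPM in members and 16.9 and 0 CPM in Fabp7 epithelium, and the transcription factor gene Sall1 at 44.4 and 43.4 CPM and 3.07 and 0 CPM. Without the library term neither Tmem229a nor Sall1 passed, and Sall1 did not pass when thinned. The 10 lowest were Nkx6-1, Tubb4a, Car3, Bhmt, Isyna1, Zic5, Kcnk2, Cldn11, Wnt6 and Mrc2. The Nkx6-1 call was lost with DESeq2's test, without the library term, at 500 genes and 10% mitochondrial UMIs and with the stricter Fabp7 and Ucma groups. The Car3 call was lost when thinned and at 500 genes and 10% mitochondrial UMIs. Isyna1 lay close to the limit (edgeR adjusted p = 0.04997). Without the cells set apart 285 genes were lower, and with the stricter Fabp7 and Ucma groups 53. Mesenchyme genes summed to 1020 and 295 CPM in members and 1342 and 7096 CPM in Fabp7 epithelium, and their part in these decreases was not tested.

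Against hair cells, members were higher in 535 genes (4.98%) and lower in 781 (7.27%), against 152 and 478 without the library term. Hair cells were chosen by hair cell genes, so such genes serve only as a check of the groups. The 8 listed hair cell genes summed to 145 and 130 CPM in members and 13132 and 11688 CPM in hair cells, and 6 of the 7 tested fell. Kncn, Rbm24, Gfi1 and Tomt had no UMI in any member, and Kncn was at least 303-fold lower on a floor of 3 counts over the group. Among genes higher in members, Sox2 was at 111 and 27.8 CPM in hair cells (log2 fold change 1.73 ± 0.47, edgeR adjusted p = 0.00720) and Gdf6 at 28.9 and 0 CPM (log2 fold change 3.62 ± 0.55, edgeR adjusted p = 4.88e-07). The Sox2 call was lost without the library term and the Gdf6 call when thinned. The Notch target gene Hey1 was at 189 and 148 CPM in members, against 24.2 and 0 CPM in hair cells (log2 fold change 3.08 ± 0.55, edgeR adjusted p = 1.68e-05). Of its 204 member UMIs in library 1, 147 lay in the Epyc set, and the call was lost among members with fewer than 10 Epyc UMIs and when thinned (highest adjusted p = 0.397 for Hey1 in members against hair cells over the edgeR and DESeq2 alternatives). Slc12a7 did not pass, at 390.1 and 167 CPM in hair cells (log2 fold change 0.49 ± 0.44, edgeR adjusted p = 0.542). The 10 largest increases were in Lrp2, E330013P04Rik, Rnase1, Vmo1, Fabp3, Slc26a7, A930003A15Rik, Tmem72, Dkk2 and Dct, and all of these except Fabp3, E330013P04Rik and Dct drew at least 94.3% of their member UMIs from the Vmo1 cells. Dct too had 43 of its 46 UMIs in library 1 in 1 cell, which was set apart, and 7 of 9 in library 2 in 1 cell. E330013P04Rik had 10 of 17 and 4 of 5 UMIs in 1 cell set apart in each library. The hair cells of library 2 were 4 cells with 36019 UMIs.

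**Figure D4:**
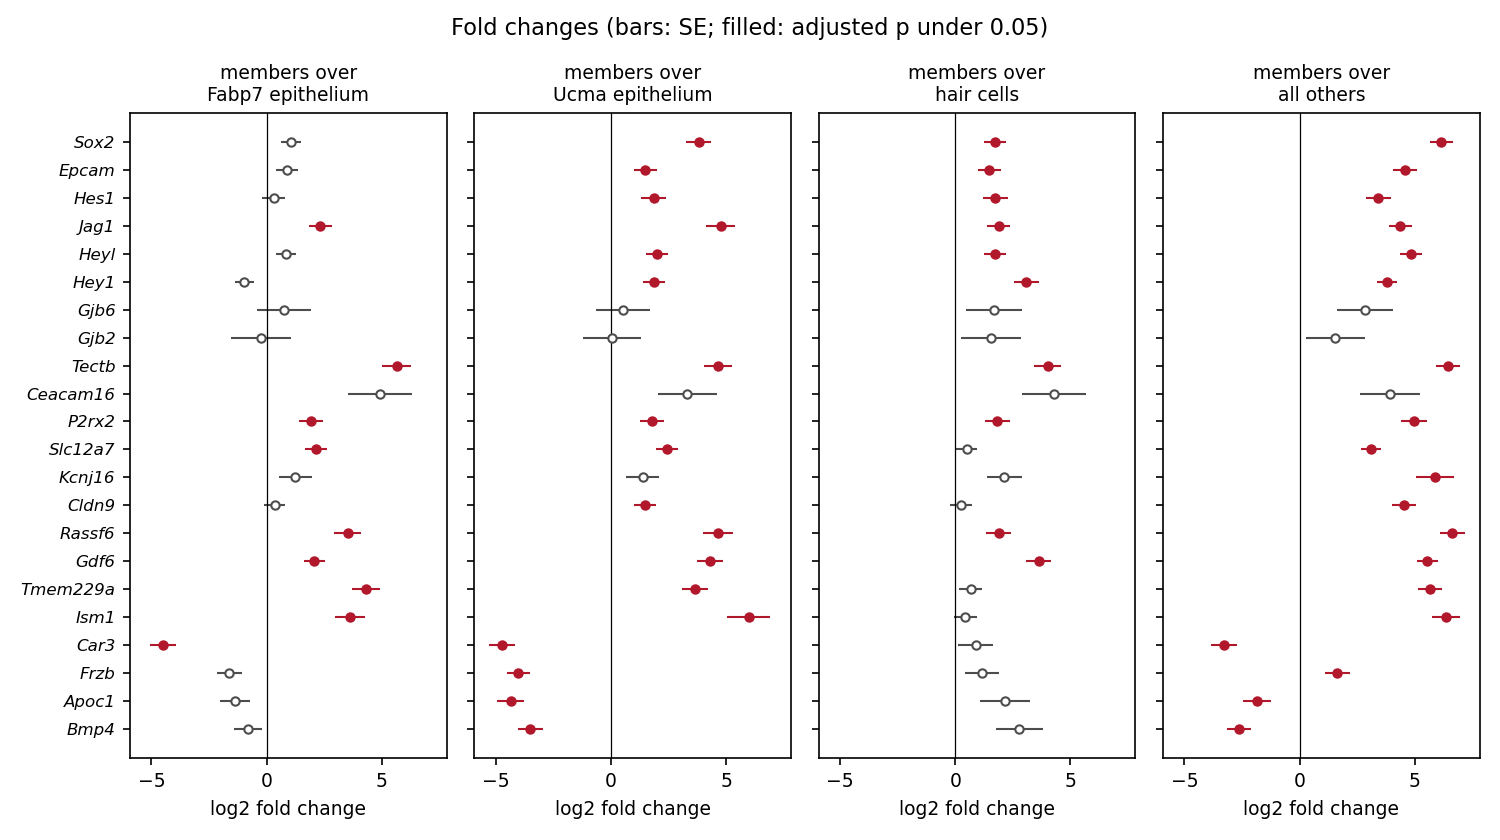
Points are log2 fold changes of members over each comparison group with bars of 1 SE, filled where the edgeR adjusted p was under 0.05. Tectb and P2rx2 are filled in all 4 comparisons, although some of these calls were lost under other settings, and Gjb2, Gjb6 and Ceacam16 in none.

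The Notch pathway list held 16 genes, of which 12 were tested. Against all others 8 were higher and Rbpj, the transcription factor of the pathway, was lower (10.3% and 12.7% of all tested genes), with a median log2 fold change of 3.15, against -0.16 for all tested genes. Against Ucma epithelium Jag1, Hey1, Heyl, Hey2, Hes1 and Notch3 were higher and none lower (2.78% and 5.74% of all tested genes), with a median of 1.597, against -0.07. The target gene Hes1 was at 396 and 512 CPM in members, against 82.7 and 165 CPM in Ucma epithelium (log2 fold change 1.85 ± 0.55, edgeR adjusted p = 0.0298), and Heyl at 213 and 329.6 CPM, against 47.8 and 82.5 CPM (log2 fold change 2.02 ± 0.48, edgeR adjusted p = 0.00330). Both calls were lost with DESeq2's test, without the library term and when thinned, Hes1 also with members that held no excluded gene and Heyl with the stricter Fabp7 and Ucma groups. The Hey1 call against Ucma epithelium was lost in 6 of 13 alternatives. Against Fabp7 epithelium Jag1 alone passed, at 49.2 and 8.06 CPM in that group (log2 fold change 2.33 ± 0.49, edgeR adjusted p = 0.00202). It did not pass with DESeq2's test, without the library term, with at least 4 of 5 rule genes or among members with fewer than 5 Bace2 UMIs (highest adjusted p = 0.456 for Jag1 in members against Fabp7 epithelium over the edgeR and DESeq2 alternatives). Within library 1, Hey2 was detected in 10 of 21 Bace2 cells and 8 of 24 Epyc cells, and in none of the 29 cells low in both.

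Of 12 tested tectorial and acellular membrane genes, Otoa and Tectb were higher against Fabp7 epithelium, Otoa, Otogl and Tectb against Ucma epithelium, and 7 against all others, where Coch, Col2a1 and Emilin2 were lower. Of all tested genes, 1.02%, 2.78% and 10.3% were higher in these comparisons and 12.7% lower against all others. The medians were 0.54, 0.52 and 1.76, beside -0.02, -0.07 and -0.16 for all tested genes. Otoa, which encodes otoancorin, was at 30.5 and 34.7 CPM in members, against 5.38 and 0 CPM in Fabp7 epithelium. Of its library 1 UMIs 48.5% came from the cells set apart, without which it did not pass against either epithelial group. Both calls were also lost with DESeq2's test, without the library term, with members that held no excluded gene and at 500 genes and 10% mitochondrial UMIs. Tecta, which encodes alpha-tectorin, had 2 UMIs in all members.

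Of 20 tested junction and adhesion genes, 12 were higher and 2 lower against all others, with a median of 3.56, beside 10.3% higher, 12.7% lower and a median of -0.16 over all tested genes. Against Ucma epithelium 6 were higher and 1 lower, with a median of 1.10, beside 2.78%, 5.74% and -0.07. Of these higher calls, Cldn9 held in 6 of 14 alternatives, Epcam in 7 of 14 and Cldn14 in 9 of 13. Each of these was lost without the library term, among members with fewer than 5 Bace2 UMIs and with the stricter Fabp7 and Ucma groups. The tight junction gene Cldn9 was at 893 and 434 CPM in members, against 26.1 and 24.5 CPM in all others (log2 fold change 4.52 ± 0.52, edgeR adjusted p = 1.19e-10) and 690.1 and 583 CPM in hair cells. Cldn14, another claudin gene, was at 131 and 174 CPM, against 4.40 and 3.22 CPM in all others (log2 fold change 5.09 ± 0.46, edgeR adjusted p = 5.85e-14). Against Fabp7 epithelium, Tjp3 was higher and Cldn11 lower.

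Of 21 ion handling genes, Aqp11, Kcnk1, Kcnj16, Slc12a7, Aqp5 and Aqp4 were higher against all others and 6 were lower, among them the water channel gene Aqp1, beside 10.3% and 12.7% of all tested genes. The Aqp4 call was lost when thinned and among members with fewer than 10 Epyc UMIs. In library 1, 93 of the 98 Aqp4 UMIs of the members lay in the Epyc set. The list's median was 0.79, against -0.16. Of 8 tested glutamate uptake and metabolism genes, 0 were higher against all others and 2, Glul and Slc1a2, were lower. Their median was -0.73, beside 10.3% higher, 12.7% lower and -0.16 over all tested genes. Of 8 tested purinergic and calcium signalling genes, 5 were higher against all others, and P2rx2, P2ry2 and Ano1 against Ucma epithelium, beside 10.3% and 2.78% of all tested genes. The medians were 1.81 and 1.34, against -0.16 and -0.07. P2rx2 was at 201 and 16.1 CPM in Fabp7 epithelium (log2 fold change 1.94 ± 0.51, edgeR adjusted p = 0.0315) and 110.3 and 124 CPM in Ucma epithelium (log2 fold change 1.77 ± 0.53, edgeR adjusted p = 0.0294), and both calls were lost without the library term, with DESeq2's test and at 500 genes and 10% mitochondrial UMIs. The call against Fabp7 epithelium was also lost with DESeq2's size factors and among members with fewer than 5 Bace2 UMIs, and the call against Ucma epithelium when thinned and with the stricter groups. The chloride channel gene Ano1 had 41 UMIs in 20 of 79 members of library 1 and none in library 2.

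Immediate early and heat shock genes were lower against all others in 10 of 13 cases and higher in none, with a median of -2.39, beside 12.7% lower, 10.3% higher and a median of -0.16 over all tested genes. Fos was at 1230 and 703 CPM in members, against 4323 and 5182 CPM in all others (log2 fold change -2.51 ± 0.47, edgeR adjusted p = 2.37e-05). Against hair cells, at 366 and 278 CPM, it was higher (log2 fold change 1.74 ± 0.48, edgeR adjusted p = 0.00879), a call lost without the library term. Of 15 tested otic transcription factor genes, 0 were higher against Fabp7 epithelium, 2 against Ucma epithelium, 9 against hair cells and 6 against all others, with none lower in any comparison. The shares higher over all tested genes were 1.02%, 2.78%, 4.98% and 10.3%. Among the vestibular genes, Otop1 and Nox3 had no UMI in members and Oc90 had 4, while Noxo1 was at 46.2 and 43.4 CPM.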

How the data were processed

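The authors deposited 1 matrix of raw UMI counts per gene and barcode for each library, made with Cell Ranger 2.1.0 against mm10 per the submitters' processing notes. Barcodes with under 300 genes or over 20% mitochondrial UMIs were left out. The members and gene lists were chosen with earlier results of these data known. Counts were summed per library and group and tested with edgeR 4.0.16 (R 4.3.3, limma 3.58.1) by its quasi-likelihood test, with TMM factors, a minimum count of 10 in filterByExpr and Benjamini-Hochberg adjustment within each comparison at 0.05. Library was a block because the groups of 1 library come from the same cell suspension. The SE was derived from the log2 fold change and its F statistic. DESeq2 1.42.0 was an alternative. Named genes were the rule and list genes, the 10 highest and 10 lowest log2 fold changes per comparison among genes that passed, moved alike in both libraries and had at least 5 counts in each library of the higher group, and the 15 genes of highest CPM in no list. On simulated counts of 9819 genes with 200 changed by 2 on the log2 scale, 56.0% were recovered against Fabp7 epithelium, 62.0% against Ucma epithelium, 50.5% against hair cells and 70.0% against all others. False calls made up 0.885%, 0.8%, 3.81% and 2.78% of the calls. The changed genes were all above the median abundance, with a common dispersion and no library effect, so recovery of rarer genes was not tested. Intervals are exact binomial at 95% and cover counting error only, as does the floor of 3 counts. The limits of the Epyc, Bace2 and set-apart cells, and the alternatives built on them or on stricter Fabp7 and Ucma groups, were chosen after seeing the data.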

Additional observations from a re-analysis of the deposited data

How the results depend on the processing

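Counts of genes are given as higher and lower in members. Against Fabp7 epithelium (110 and 124), the model without the replicate block gave 8 and 2, DESeq2's test 21 and 10, thinning to 3000 UMIs 49 and 50, a limit of 500 genes and 10% mitochondrial UMIs 37 and 14, members under 10 Epyc UMIs 174 and 255, members under 5 Bace2 UMIs 64 and 64, and a test of 5329 genes, those with an even checksum, 54 and 56. The lower count was also 219 with at least 4 of 5 rule genes, 285 without the 6 cells set apart and 53 with stricter Fabp7 and Ucma groups. Against Ucma epithelium (299 and 616), the counts were 45 and 33 without the replicate block, 88 and 83 with DESeq2's test, 64 and 54 thinned and 145 and 279 with even checksum genes, and the lower count was 381 under 5 Bace2 UMIs and 301 with stricter groups. Against hair cells (535 and 781), they were 152 and 478 without the replicate block, 251 and 340 thinned and 276 and 418 with even checksum genes, with 473 lower by DESeq2's test. Against all others (1106 and 1366), they were 268 and 339 thinned and 557 and 656 with even checksum genes, with 758 lower without the replicate block and 698 by DESeq2's test. Thinning left 2367 genes to test, so both it and the checksum setting give fewer calls by construction, and the cause of the other shifts was not tested.

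The members' share (5.94% and 2.17%) was 3.61% and 0.932% with at least 4 of 5 rule genes, 9.99% and 4.81% with at least 2, 3.61% and 0.776% thinned, and in library 1 3.16% with no excluded gene and 9.17% with no exclusion. Some log2 fold changes turned sign. Gjb2 in members against Fabp7 epithelium (-0.25) was 0.48 with at least 4 rule genes, 0.18 with no excluded gene, 2.20 thinned, 1.58 at 500 genes and 10%, 0.046 under 10 Epyc UMIs and 1.49 with stricter groups, and ranged from -1.23 to 1.09 leaving out a library. Gjb2 in members against Ucma epithelium (0.05) was -0.028 with DESeq2's test and -0.40 with stricter groups, and ranged from -0.62 to 0.70. Gjb6 in members against Fabp7 epithelium ranged from -0.091 to 1.71. Gjb6 in members against Ucma epithelium was -0.078 with stricter groups and ranged from -0.28 to 1.40. With stricter groups, Kcnk2 in members against Ucma epithelium was 0.76 and Cldn9 in members against Fabp7 epithelium -0.23. Thinned, Hey1 in members against Ucma epithelium was -1.19, Cldn14 in members against Ucma epithelium -0.18 and Car3 in members against Fabp7 epithelium 5.23. The cause was not tested. Of 75 calls for single genes followed through the alternatives that gave a test, 27 held in all of them, 37 were lost without the replicate block and 18 with DESeq2's test. Leaving out a library leaves no residual degrees of freedom, so it gives values and no test, and hair cells at 500 genes and 10% had 1 cell in library 2 and were not compared.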
